A study of Saccharomyces cerevisiae with 6 samples.

Results

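The 9 nuclear genes for the structural subunits of cytochrome c oxidase in the budding yeast Saccharomyces cerevisiae are COX4, COX5A, COX5B, COX6, COX7, COX8, COX9, COX12 and COX13. They were taken by name, through the systematic names of the array, from 6256 yeast probes with 1 probe per gene. All 9 had a probe and were among the 5907 genes tested. The arrays were 6 one-colour (Cy3) Agilent arrays of total RNA. The xylose group (3 arrays) was sampled at 9 h of fermentation, and the glucose group (3 arrays) at 3 h, each sugar being supplied at 50 g/L. The effects of sugar and of time therefore cannot be told apart. The strain, its genotype and the aeration of the cultures are not given in the sources used here. For the glucose samples the source field says 9 h, but their titles and time labels say 3 h, which was used. Whether the numbered runs were separate cultures is not stated, so the spread behind each p-value may be technical and not biological. A transcript level on these arrays does not tell fewer expressing cells from less RNA per cell.

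Cytochrome c oxidase is the last complex of the respiratory chain, where electrons from cytochrome c reduce oxygen to water while protons are pumped across the inner mitochondrial membrane. Its catalytic core is encoded in mitochondrial DNA, and the surrounding small subunits are encoded in the nucleus. In yeast many of the nuclear genes are repressed by glucose and activated through the haem-linked HAP factors. Subunit V exists as alternative isoforms: COX5A encodes the one made in the presence of oxygen, and COX5B the hypoxic one, whose gene is held down by the haem-induced repressor Rox1 in aerated cells.

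The arrays were not evenly spread within their groups, and this touches the results below. The 75th percentile of the signal ranged over the arrays from 1407 to 3871 units, and between 92.3% and 95.6% of probes were well above background. Across genes, r was 0.993 between the first and second xylose arrays. Their median absolute log2 difference was 0.0862, while either one differed from the third by 0.455 or 0.484. Glucose replicate 2 correlated with the other glucose arrays at 0.868 and 0.837, which correlated with each other at 0.958, and it stood apart in some marker genes of laboratory strains. LEU2 was at a log2 level of 0.34 there and between -9.07 and -7.88, not well above background, on the other 5 arrays. MET17 (4.57 there, -9.06 to -8.04 on the other 5 arrays) and URA3 (6.35 against 0.99 to 1.82) were higher in replicate 2 as well. TRP1 (-4.39 against -0.95 to 0.16) and ASP3-1 (-8.55 against 2.87 to 3.99) were lower. The hexose transporter gene HXT1 was at 3.46 there and between -2.39 and -0.73 on the other 5 arrays. ADE2 and HIS3 did not set it apart: ADE2 was at 1.21, 1.23 and 1.24 in glucose, and HIS3 was not well above background on any array. The labels do not say whether replicate 2 differed in strain or culture, so the subunit results, and some other calls that turn on this array, are given with and without it. For both sugars, replicates 1 and 2 shared slide 1, and replicate 3 was on slide 2.

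The transcripts of 8 of the 9 subunits were higher on every xylose array than on every glucose array, by 3.20-fold to 4.69-fold on average, and COX5B was the exception. Of these 8, 6 rose by limma's moderated test at an adjusted p under 0.05 over all genes tested: COX4, COX5A, COX6, COX7, COX8 and COX13. None fell. Rises made up 1.42% of all genes tested, calls in either direction 2.52%, and genes higher without overlap 12.6% (21.8% without glucose replicate 2). The median log2 difference of the 9 subunits, xylose minus glucose, was 1.87, against 0.02 over all genes tested. Levels in the following are log2 signals relative to the array's 75th percentile, listed for replicates 1 to 3, and compare arrays for 1 probe, not probes with each other.

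**Figure D1:**
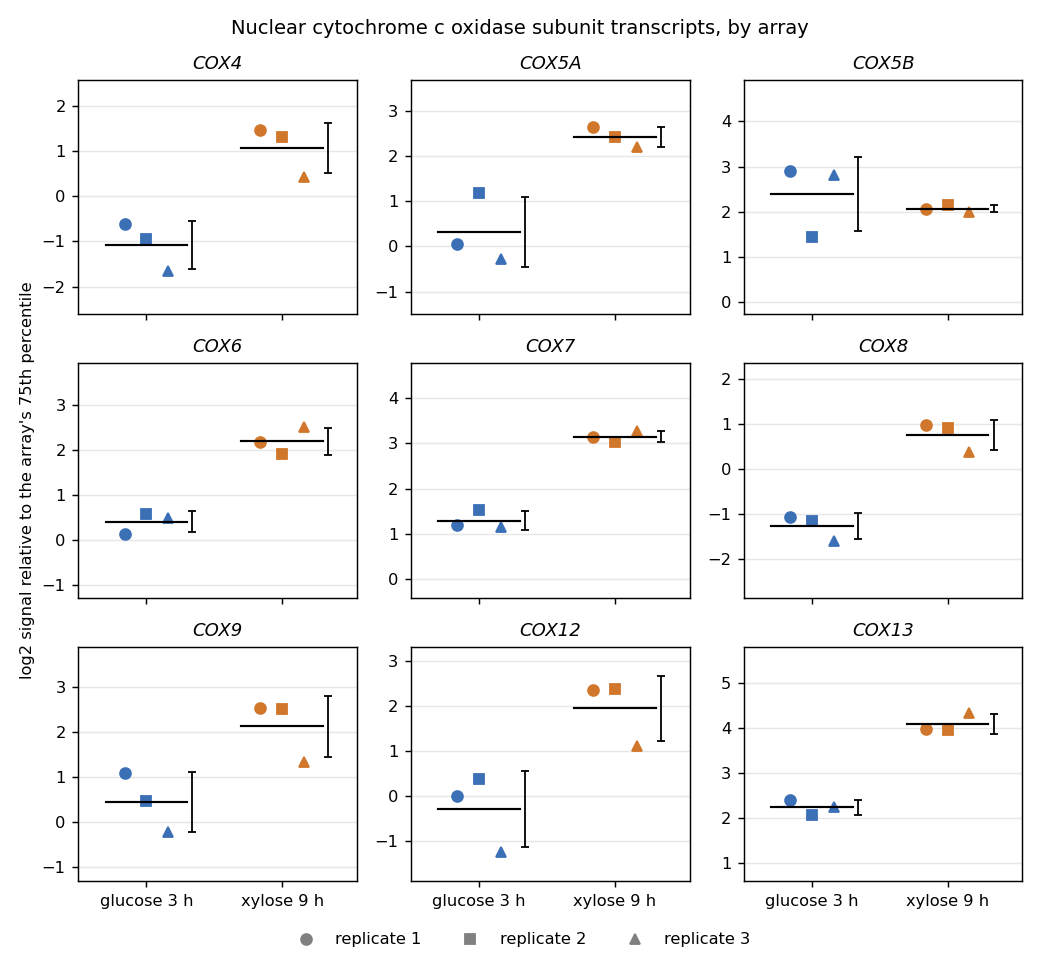
Log2 signal relative to the array's 75th percentile (y axis, of the same height in every panel) for each of the 9 subunit genes on the 3 glucose and 3 xylose arrays. Points are arrays, with the shape giving the replicate, lines are group means and bars beside them are 1 SD (n = 3). In 8 panels the xylose points all lie above the glucose points, and in the COX5B panel glucose replicates 1 and 3 lie above xylose and glucose replicate 2 below it.

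The isoform genes of subunit V moved differently. COX5A (YNL052W) stood at 0.05, 1.19 and -0.28 in glucose and at 2.65, 2.43 and 2.21 in xylose. Every xylose array was above every glucose array, and glucose replicate 2 was the highest of the glucose arrays. The log2 difference was 2.11 ± 0.40 (SE, n = 3 against 3), a 4.32-fold rise with a limma adjusted p = 0.0465. This call lies close to the threshold: with no filter on dim probes the adjusted p was 0.0509. Blocking on replicate number gave an adjusted p of 0.0534, and without glucose replicate 2 the difference was 2.55 (adjusted p = 0.00499).

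COX5B (YIL111W) stood at 2.91, 1.44 and 2.82 in glucose and at 2.07, 2.14 and 1.99 in xylose. The xylose arrays lay within 1 narrow range (SD 0.07, n = 3), while the glucose arrays spread on both sides of it (SD 0.82, n = 3), with replicate 2 lowest. The log2 difference was -0.32 ± 0.41 with a 95% interval from -1.29 to 0.65 (limma adjusted p = 0.774), so changes of up to about that size in either direction were not resolved. Without glucose replicate 2 the groups no longer overlapped and COX5B fell by 0.80 on the log2 scale (adjusted p = 0.0430), a setting in which 5.65% of all genes fell. This fall rests on glucose replicates 1 and 3 alone, and the array left out lay below the xylose arrays. The share of all genes without overlap in that setting was taken only for genes higher in xylose, and it was 21.8%.

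The contrast of the isoforms was measured as the log2 ratio of COX5A to COX5B within each array, which no centring of the array can change. Relative to its mean over the 6 arrays this ratio was -2.01, 0.60 and -2.24 in glucose and 1.43, 1.15 and 1.07 in xylose. The ratio was highest in xylose on all 3 arrays, and glucose replicate 2 lay much closer to them than the other glucose arrays did. The change was 2.43 ± 0.92 (SE, n = 3 against 3), which is 5.40-fold. An exact permutation test (two-sided) gave p = 0.1, the smallest value that 3 against 3 arrays allow, and 0.25 after Benjamini-Hochberg adjustment over the 5 isoform pairs compared. Without glucose replicate 2 the change was 3.34, and within slides 1 and 2 it was 1.99 and 3.31.

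The ratio of each of the 8 other subunits to COX5B was also higher on every xylose array than on every glucose array. These changes ran from 2.0 for COX9 to 2.55 for COX12, each with an exact permutation p = 0.1, which is again the smallest possible. Over all other genes tested 9.87% had a ratio to COX5B that was higher in xylose without overlap.

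Among the subunits needed to build the enzyme, COX4 (YGL187C), a zinc-binding subunit, stood at -0.62, -0.95 and -1.65 in glucose and at 1.47, 1.31 and 0.43 in xylose. The groups were apart, and replicate 3 was the lowest array in both. COX4 rose by 2.14 ± 0.39 (adjusted p = 0.0410). COX6 (YHR051W), for subunit VI on the matrix side, stood at 0.15, 0.59 and 0.50 in glucose and at 2.17, 1.91 and 2.50 in xylose. It rose by 1.78 ± 0.26 (adjusted p = 0.0221), and here xylose replicate 3 was the highest array.

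COX7 (YMR256C), for the small membrane subunit VII, stood at 1.19, 1.52 and 1.14 in glucose and at 3.14, 3.04 and 3.28 in xylose. Both groups were tight, with SDs of 0.21 and 0.12 (n = 3), and COX7 had the smallest adjusted p of the 9, 0.0153, with a rise of 1.87 ± 0.23. COX8 (YLR395C), for the membrane subunit VIII, stood at -1.05, -1.15 and -1.59 in glucose and at 0.97, 0.92 and 0.37 in xylose. The rise of COX8 was 2.02 ± 0.28 (adjusted p = 0.0194), with replicate 3 lowest in both sugars.

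COX9 (YDL067C), for the membrane subunit VIIa, stood at 1.1, 0.47 and -0.23 in glucose and at 2.54, 2.50 and 1.34 in xylose. The groups did not overlap, but xylose replicate 3 came close to glucose replicate 1, and the difference of 1.68 ± 0.46 did not pass (adjusted p = 0.124). COX12 (YLR038C), for subunit VIb on the intermembrane-space side, stood at -0.01, 0.39 and -1.24 in glucose and at 2.35, 2.36 and 1.11 in xylose. Its difference of 2.23 ± 0.52 was the largest of the 9 and did not pass either (adjusted p = 0.0822). Both genes passed with the replicate number as a block (adjusted p = 0.0344 for COX9 and 0.0341 for COX12) and with the slide as a block (0.0163 and 0.00874). The subunits then counted 7 and 8 rises, where 2.76% and 6.42% of all genes rose. COX12 also passed without glucose replicate 2 (0.0421), and COX9 did not (0.115).

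COX13 (YGL191W) encodes subunit VIa, a peripheral subunit that modulates the enzyme and is not needed to assemble it. It stood at 2.41, 2.07 and 2.26 in glucose and at 3.97, 3.96 and 4.34 in xylose, with a rise of 1.85 ± 0.24 (adjusted p = 0.0160). As with COX6, xylose replicate 3 was the highest array.

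**Figure D2:**
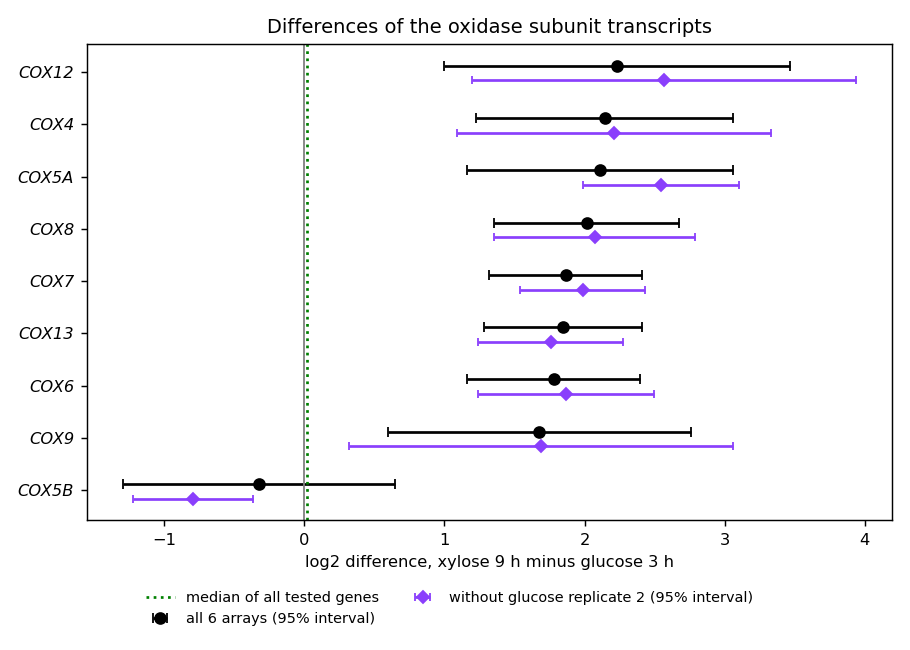
Log2 difference, xylose at 9 h minus glucose at 3 h, for the 9 subunit genes (x axis), with 95% confidence intervals from limma for all 6 arrays (circles) and without glucose replicate 2 (diamonds). The dotted line marks the median of all genes tested, 0.02. The intervals of 8 genes lie above 0 in both settings, and that of COX5B spans 0 with all arrays and lies below 0 without glucose replicate 2.

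In order of size the differences were COX12, COX4, COX5A, COX8, COX7, COX13, COX6, COX9 and COX5B. The first 8 span 1.68 to 2.23 (log2), and each step between neighbours is smaller than the SE of either, so their order is not resolved. The spots of 1 probe on 1 array, of which there were 7, varied with a median SD of 0.07 (log2) over the 9 genes and 6 arrays, while the SD between arrays of a group had a median of 0.30 in xylose and 0.53 in glucose. All 9 probes were well above background on all 6 arrays, with mean signals from 1151 to 64619 units.

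Part of that spread followed the slide. On slide 2, relative to the mean of the slide 1 arrays of the same sugar, COX12 differed by -1.25 in xylose and -1.43 in glucose, and COX9 by -1.18 and -1.01. COX4 (-0.96 and -0.87), COX8 (-0.57 and -0.49) and COX5A (-0.33 and -0.90) were lower as well, whereas COX6 (0.46 and 0.13) and COX13 (0.38 and 0.02) were higher. COX5B (-0.11 and 0.64) and COX7 (0.20 and -0.22) shifted in opposite directions in the 2 sugars. The median of all genes tested was -0.11 and -0.12. The difference between sugars was positive for the same 8 genes within each slide, with a median over the 9 of 1.74 on slide 1 and 2.08 on slide 2; slide and replicate number cannot be told apart for replicate 3.

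Genes for the rest of the enzyme and its assembly were set beside the nuclear subunits. The probes of the mitochondrially encoded core subunits COX1, COX2 and COX3 differed by 0.23 ± 0.43, 0.73 ± 0.47 and 0.30 ± 0.34, and none of the 3 passed. COX1 and COX3 were at -0.46 and -0.39 with spike-in centring. COX2 passed as higher without glucose replicate 2 (1.26, adjusted p = 0.0378). RCF1 and RCF2, for proteins that join the oxidase to respiratory supercomplexes, differed by 0.70 and 0.58 without passing, and RCF1 passed as higher with the slide as a block (adjusted p = 0.0267). None of 23 genes for copper and haem delivery and for assembly chaperones passed (median 0.37); the largest differences were those of COX19, for a protein of copper delivery, at 1.0 ± 0.32 and of CMC2, for a protein of the intermembrane space, at 0.99 ± 0.37. None of 9 genes that serve the expression and insertion of the mitochondrially encoded subunits passed (median 0.24), with PET111 and PET494, translational activators of COX2 and COX3, at 0.70 and 0.69. With the slide as a block, where 6.42% of all genes rose, 2 of the 23 (COX14 and COA3) and 2 of the 9 (PET111 and MSS2) passed as higher. COX14, COA3 and MSS2 were named after their values were seen.

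Some genes of the neighbouring respiratory complexes also rose, against the 1.42% of all genes given above. In the cytochrome bc1 complex 6 of 9 genes rose and none fell (median 1.5), among them QCR9 (1.62 ± 0.21), CYT1 for cytochrome c1 (1.87 ± 0.26), RIP1 for the iron-sulfur protein (1.65 ± 0.23) and QCR7 (1.34 ± 0.21). COR1, QCR8 and QCR10, named after their values were seen, passed only with a block or, for QCR10, also without glucose replicate 2, so that 9 of 9 rose under either block and 7 without glucose replicate 2. In the nuclear part of the ATP synthase 4 of 15 genes rose and none fell (median 1.24), ATP5 (1.72 ± 0.23), ATP19 (1.6 ± 0.25), ATP14 (1.43 ± 0.27) and ATP16 (1.44 ± 0.28). Of these 15, 9 rose under the replicate block, 13 under that of the slide and 8 without glucose replicate 2. Over all genes tested, the shares that rose in these settings were 2.76%, 6.42% and 5.89%, in the same order. With spike-in centring none of either complex passed, and the medians were 0.81 and 0.55. Both sets of 4 had limma adjusted p-values between 0.0160 and 0.0477. The cytochrome c genes CYC1 and CYC7 differed by 2.81 ± 0.83 and 1.91 ± 0.52 and the haem lyase gene CYC3 by 0.58 ± 0.49, none passing with all arrays. CYC1 (3.86, adjusted p = 0.00339) and CYC3 (1.16, 0.0224) passed without glucose replicate 2, and CYC7 with the replicate block (0.0344) and the slide block (0.0109).

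**Figure D3:**
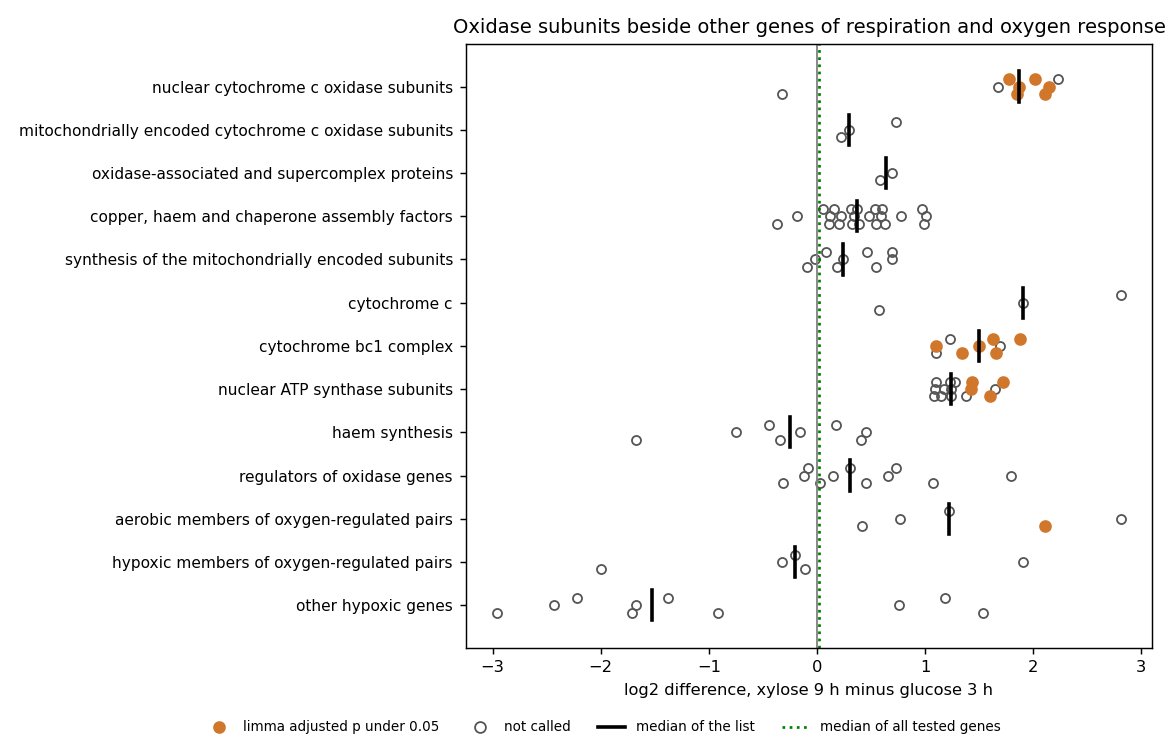
Log2 difference, xylose at 9 h minus glucose at 3 h (x axis), for every tested gene of 13 gene lists. Filled points passed limma's adjusted p under 0.05, open points did not, thick bars are list medians and the dotted line is the median of all genes tested. The nuclear oxidase subunits, the bc1 complex and the ATP synthase hold all filled points except the repeat of COX5A among the aerobic pair members.

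Of 11 regulators of oxidase genes none passed with all arrays (median 0.31), and with the slide block HAP2, named after its value was seen, passed as higher (0.73, adjusted p = 0.0495). HAP4, the activating subunit of the HAP complex, stood at 1.17, -0.73 and 0.79 in glucose and at 2.46, 2.44 and 1.72 in xylose. Its groups did not overlap and its difference was 1.80 ± 0.51 (adjusted p = 0.138; 1.23 and 0.0576 without glucose replicate 2). MOT3, for a repressor of hypoxic genes, differed by 1.07 ± 0.31 (adjusted p = 0.145) and passed without glucose replicate 2 (1.38, 0.0133). The haem-responsive activator gene HAP1 and the repressor gene ROX1, named after their values were seen, differed by -0.32 ± 0.41 and 0.66 ± 0.42. ROX1 stood at -1.71, -0.12 and -1.36 in glucose and between -0.43 and -0.38 in xylose, so that glucose replicate 2 was above the xylose arrays and the other glucose arrays below them. Without glucose replicate 2 ROX1 passed as higher (1.13, adjusted p = 0.0241), while with all arrays and spike-in centring it was at -0.029. Of 8 genes of haem synthesis none passed in the main fit with all arrays. Under spike-in centring 1 of the 8 fell, where 108 of the 5907 genes tested did. HEM13, the oxygen-dependent hypoxic step, differed by -1.67 ± 1.07 and HEM12 by -0.75 ± 0.23, and HEM12 passed as lower with the slide block (adjusted p = 0.0495). Without glucose replicate 2, where 5.65% of all genes fell, 2 of the 8 fell. These were HEM13, with a log2 difference of -3.02 (adjusted p = 0.0129), and HEM14, named after its value was seen, with -0.92 (0.0498).

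The order of the glucose arrays seen for COX5B recurred in other hypoxic genes. Of 14 hypoxic genes other than COX5B 13 had their lowest glucose level in replicate 2, against 37.2% of all genes tested. CYC7 was the exception. All 4 aerobic partners other than COX5A had their highest there, against 38.8%. ANB1, the hypoxic partner of the translation factor gene HYP2, stood at 3.00, -3.82 and 2.79 in glucose and at 0.58, 0.39 and 0.66 in xylose. As with COX5B, the xylose arrays lay between glucose replicate 2 and the other glucose arrays. AAC3, the hypoxic ADP/ATP carrier, stood at -1.18, -4.07 and -0.71 in glucose and between -4.17 and -3.64 in xylose. Without glucose replicate 2 ANB1 fell by 2.35 (adjusted p = 0.00447) and AAC3 by 3.04 (0.00499) on the log2 scale, and the cell wall genes TIR4 and TIR3 fell by 3.88 (0.00387) and 3.80 (0.00624). In the main fit with all arrays none of these 4 passed (TIR4 -2.96 ± 0.74, adjusted p = 0.0960, and TIR3 -2.43 ± 1.08, 0.321). Of the 10 hypoxic genes outside the pairs, 3 had positive differences (median of the 10 -1.53), and none passed in the main fit with all arrays. Under spike-in centring, also with all arrays, 5 of the 10 fell (median -2.22). In that setting the median of all genes was -0.67 and 108 of the 5907 genes tested fell. Without glucose replicate 2, where 5.65% of all genes fell, 7 of the 10 fell. The 3 positive ones, named after their values were seen, were the desaturase gene OLE1 at 1.53, SUT1 at 1.18 and TIR2 at 0.76. SUT1 passed as higher under the block by replicate (adjusted p = 0.0489) and by slide (0.0190), and TIR2 with the slide block (0.0325). The part that array identity had in these differences was not tested.

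Ratios of the aerobic to the hypoxic partner, each relative to its mean over the 6 arrays, placed glucose replicate 2 highest among the glucose arrays in all 5 pairs. For the ADP/ATP carriers PET9 and AAC3 the ratio was -2.59, 0.59 and -2.82 in glucose and 1.66, 1.57 and 1.58 in xylose, the same arrangement as for COX5A and COX5B. Its change was 3.21 ± 1.1 (exact permutation p = 0.1, adjusted 0.25). PET9 itself differed by 1.22 (limma adjusted p = 0.0576), and it passed when the replicate number (0.0487) or the slide (0.0190) was a block and without glucose replicate 2 (0.0314). For HYP2 and ANB1 the ratio in glucose replicate 2, 5.12, lay above the xylose arrays at 0.33 to 0.63, and the change was 0.88 ± 2.79. For CYC1 and CYC7 it was 0.91 ± 1.02 and for the HMG-CoA reductase genes HMG1 and HMG2 0.61 ± 1.03, with overlapping groups. Without glucose replicate 2 the 5 changes ran from 1.6 to 4.31. In that setting all 5 aerobic members rose, where 5.89% of all genes did, and 3 of the 5 hypoxic members fell, where 5.65% did. In the main fit with all arrays 1 aerobic member rose and 0 hypoxic members fell. Under spike-in centring 0 aerobic members rose and 1 hypoxic member fell, where 108 of the 5907 genes tested fell. HYP2 (1.32, limma adjusted p = 0.0128) and HMG1 (0.79, 0.0421), named after their values were seen, passed without glucose replicate 2 and not with all arrays.

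**Figure D4:**
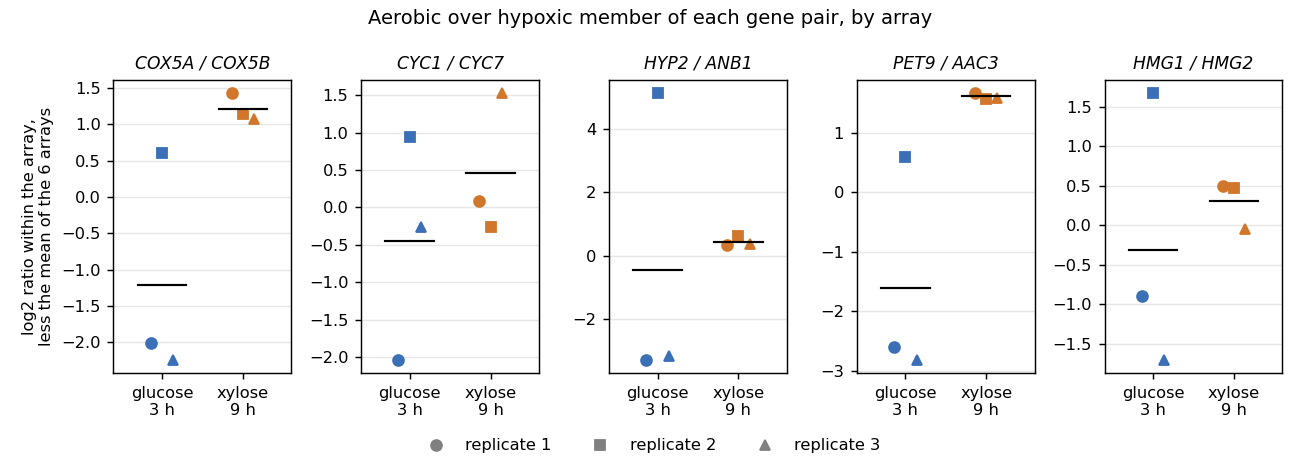
Log2 ratio of the aerobic to the hypoxic member within each array, less the mean of the 6 arrays (y axis, with its own scale in each panel), for 5 gene pairs. Points are arrays, with the shape giving the replicate, and lines are group means (n = 3). Glucose replicate 2 (square) is the highest glucose point in every panel, and the xylose points lie above all glucose points for COX5A over COX5B and PET9 over AAC3.

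Across the 6 arrays the 8 subunits other than COX5B correlated with each other at r = 0.706 to 0.989 and with COX5B at -0.64 to -0.23. These values describe 6 arrays that fall into 2 groups, so any gene that differs between the groups correlates with these 8. The genes outside the subunits whose levels were most like the mean of the 8 were KRE28 (r = 0.998), PSP1, SPR3, GTF1 and MID2 (0.995). Of these SPR3, a septin gene of sporulation, rose (1.85, adjusted p = 0.0175) and GTF1, for a subunit of the mitochondrial glutamyl-tRNA amidotransferase, narrowly missed the threshold (1.32). The genes most like COX5B were the ribosomal protein genes RPL11A (r = 0.995), RPS7B and RPL14B, the translation initiation factor gene HCR1 and the Mediator kinase gene SSN3 (0.991). COX5B varied little in xylose (SD 0.07) and mainly among the glucose arrays, with replicate 2 at 1.44 and the others at 2.91 and 2.82. These r values therefore rest largely on the spread of the glucose arrays, and shared regulation was not tested.

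The calls of the subunits rest on few arrays. Leaving out 1 array gave 0 to 7 rises among the 9: 0 without any one xylose array or glucose replicate 1. Without glucose replicate 3 there were 2, COX7 and COX13. There were 7 without glucose replicate 2, where 5.89% of all genes rose. With xylose replicates 1 and 2 averaged as 1 sample none of the 9 passed, with adjusted p-values from 0.114 for COX7 and COX13 upward. None passed with spike-in centring either, which moved the median of all genes to -0.67 and that of the 9 to 1.18. In that setting the SE was 0.70 for each of the 9, against 0.23 to 0.52 in the main fit.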

How the data were processed

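Total RNA was labelled with Cy3 and hybridised to 1-colour Agilent arrays, per the labels. Per the file headers, the authors' spot intensity came from version 10.1.1.1 of Agilent's Feature Extraction. A deposited table of log2 values equalled, for 100% of 6256 probes within 0.001, the mean log2 processed signal less 1 constant per array. No source used here says how that table was computed. Its column medians were -1.25, -1.23 and -1.38 for xylose and -1.26, -1.26 and -1.41 for glucose replicates 1 to 3.

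Spots flagged non-uniform or outlying, 727 to 1722 of 43792 per array, were left out. Each array's 75th percentile was subtracted from its log2 processed signals, and a probe's 7 spots were averaged. Probes well above background (over 0.5 of spots) on at least 3 arrays were tested by moderated two-sided tests (lmFit, then eBayes, of limma 3.58.1 under R 4.3.3), with Benjamini-Hochberg adjustment across every gene tested. The fit was checked on simulated data with the same noise for every gene and no slide effect or outlying array. That check does not cover the uneven spread of these arrays. Names came from an R64 table by locus tag, matching 5756 probes. No sequences or coordinates were used.

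The members and lists were chosen with earlier results of these data known. Named genes were all 9 subunits, all genes of lists of up to 5, the 4 called genes with the smallest adjusted p of longer lists or, with none called, the 2 largest differences, and the 5 genes with the highest correlation. Same-numbered xylose and glucose arrays deviated together from their group means (r = 0.399, 0.219 and 0.707). Unlike-numbered arrays of slide 1 did so to a like degree (0.410 and 0.246), and arrays of different slides did not (-0.622 to -0.269). These values follow the slide. They cannot decide whether arrays were also paired by number, because xylose replicates 1 and 2 were nearly alike. For replicate 3 the slide and the number coincide. The main fit had no block, and the replicate number and the slide were blocks only in alternative fits. Adjusted p-values or counts of calls with the replicate block stand beside the results whose calls it changes.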

Additional observations from a re-analysis of the deposited data

How the results depend on the processing

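The number of genes called was 149 with all arrays. Blocking on the replicate number gave 310, blocking on the slide 690. The count was 0 within slide 1 (limma, 987 at an unadjusted p under 0.05), 12 to 682 when 1 array was left out, 12 with xylose replicates 1 and 2 averaged and 53 with normexp on the median signal, an alternative added after seeing the data in place of the mean signal. The rises among the 9 subunits, 6 with all arrays, numbered 0 within slide 1, 0 to 7 with 1 array left out, 0 with the average, 3 with normexp, 0 with spike-in centring and 5 with no filter on dim probes, where COX5A missed the threshold (adjusted p = 0.0509). Their median fell to 1.18 with spike-in centring. The replicate block changed no call of the subunits other than COX5A, COX9 and COX12. All 9 subunits kept their direction in all 19 alternatives, with COX5B between -1.01 and -0.06. COX5A changed more than COX5B in all of them, by 1.92 to 3.34. The cause of these shifts was not tested, except that fewer arrays leave fewer degrees of freedom.

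Small differences of other genes changed sign. With 1 array left out the lowest and highest values were -0.21 and 0.47 for COX1, -0.053 and 0.49 for COX3, -2.35 and 1.06 for ANB1, -0.60 and 0.067 for HAP1, -0.81 and 0.28 for HMG2, -0.70 and 0.031 for RPL14B and -0.34 and 0.036 for SSN3. Within slide 1 ANB1 was at 0.89, HMG2 at 0.12 and SSN3 at 0.019, and within slide 2 COX3 at -0.12. Spike-in centring gave -0.46 for COX1, -0.39 for COX3, -0.11 for RCF2, -0.11 for CYC3, -0.14 for COA3, -0.15 for MSS2, -0.029 for ROX1 and -0.28 for HMG1. Normexp gave 0.17 for SSN3 and quantile normalization 0.13 for ANB1.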
